A study of Mus musculus with 9 samples.

Results

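A set of 10 genes of the heat shock protein and chaperone family were followed in G1E cells, which are mouse erythroid progenitors grown as a line and have no working Gata1 of their own. The members were picked by gene symbol from a table of 27999 rows: Hspa1a, Hspa1b, Hspa8, Hspa9 and Hspa5 of the HSP70 family, Hsp90aa1 and Hsp90ab1 of the HSP90 family, Hsph1, Dnajb1 and Hspb1. All 10 had a row, 7 of them had enough reads to be tested among 9978 mouse genes, and 3 had almost none. RNA was sequenced by Smart-seq2, which covers whole transcripts and keeps no strand, in 3 groups of 3 libraries. The medium of every group held murine stem cell factor and erythropoietin, and all cells were infected with virus made in 293T cells. The groups had received the empty HMD vector, human wildtype GATA1 or a human GATA1 mutant, and no source used here gives the mutation, the time after infection or any selection of infected cells. The series calls the replicates biological, but nothing says that they came from separate cultures, so a p-value here gauges only the variation among the libraries at hand, which may be technical.

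HSP70 proteins bind unfolded stretches of other proteins and release them in a cycle driven by ATP. J-domain proteins such as DNAJB1 deliver the client and start the cycle, and exchange factors such as HSPH1 and the BAG proteins end it by removing ADP. HSP90 receives signalling proteins and transcription factors that HSP70 has begun to fold. The transcription factor HSF1 raises many of these genes when proteins unfold, by binding repeats of the letters GAA and TTC called heat shock elements. In maturing erythroid cells HSP70 enters the nucleus and shields GATA1 from cleavage by caspases, and the exportin XPO1 carries HSP70 back out. GATA1 drives erythroid maturation, so the comparisons ask how the RNA for this machinery stood with each form of GATA1.

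Totals ran from 11364358 to 17289307 counts a library, and were lowest in the wildtype group (11364358 to 13103114). Human GATA1 had 653 ± 53.9 CPM (counts scaled to a common library size) in the mutant group and 817 ± 103 in the wildtype group (SD, n = 3), and 0, 2 and 0 counts with the empty vector. Erythroid progenitor genes such as Kit, Klf1 and Tfrc were present in every library, and none of the 8 listed was at 0. Summed over 5 fibroblast and endothelial markers the level reached 0.13 CPM at most, 5 granulocyte and monocyte markers reached 2.66 CPM, and 4 lymphoid markers 9.24 CPM, most of it Lck. The 4 mast cell markers, with Mcpt8 at 0 and most of the rest from Cpa3, summed to 29.4 to 36.1 CPM with the empty vector, 10.2 to 13.6 with the mutant and 3.25 to 4.81 with the wildtype. The 4 megakaryocyte markers, with Gp1bb at 0, summed to 46.8 to 51.8, 32.8 to 37.9 and 22.9 to 29.4 CPM in the same order. Most of the sum came from Pf4 and Itga2b. Gp9 did not follow it, at 5.10 to 6.70, 5.85 to 7.11 and 4.83 to 9.44 CPM, which overlap. The part of these markers in the results below was not tested. The 6 markers of maturing red cells summed to 304 to 334 CPM with the empty vector, 1330 to 1440 with the mutant and 15500 to 27100 with the wildtype. Mutant replicates 1 and 2 were more alike than any other pair of replicates, with a chi-square of 2.2 per gene against 15 to 55.5 for the other pairs. They still differed by more than sampling noise, which gives 1 per gene, so they were counted as 2 libraries and also summed as an alternative.

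Both genes for the inducible cytosolic HSP70, and Hspb1, had almost no reads. Hspa1a (GRCm38, chromosome 17, 34969190 to 34972156, minus strand), Hspa1b (chromosome 17, 34956436 to 34959238, minus strand) and Hspb1 (chromosome 5, 135887919 to 135889563, plus strand) encode the inducible cytosolic HSP70 and a small heat shock protein. Hspa1a and Hspb1 had 0 counts in all 9 libraries. Hspa1b had 2 counts in mutant replicate 2, 1 count in mutant replicate 3 and 0 elsewhere. A count of 0 allows up to 3 counts, which was 0.174 to 0.264 CPM in these libraries, so no difference between groups was detectable for these 3 genes. The limits hold for counting error alone, because reads that carry no molecular identifier need not be independent molecules.

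Near-identical copies limit what those zeros can say. In the annotation's longest coding transcript, 58.8% of the 50-base stretches of Hspa1a were also present in Hspa1b, and 51.6% of those of Hspb1 were present in Hsp25-ps1, a processed copy. Hspa1a also shares 564 exon bases with Gm20481 on the opposite strand, where reads without a strand cannot be told apart. No source used here says how reads matching more than 1 gene were counted. Over all annotated genes 66.3% of the stretches of Hspa1a and 62.3% of those of Hspa1b were shared. In all, 3 counts in Hspa1b were assigned to these 3 genes. With Hspa1a and Hspa1b added into 1 row, the pair stayed below the expression filter.

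Promoter sequence of the near-silent and the expressed members is shown to compare their stress elements. The windows are the 250 bases before the start site in RefSeq (GRCm38.p6), 5′ to 3′ on the gene's strand, at chr17:34959239-34959488 for Hspa1b, chr5:135887669-135887918 for Hspb1, chr5:149636337-149636586 for Hsph1, chr8:83607925-83608174 for Dnajb1 and chr2:34771840-34772089 for Hspa5. Capitals mark the heat shock pairs GAANNTTC and TTCNNGAA and the endoplasmic reticulum stress element (CCAAT and CCACG with 9 bases between them), searched on both strands. RefSeq windows were used for 6 of the 10 members, and that of Hspa1a, which is not shown, was 98.8% identical to that of Hspa1b.
Hspa1b: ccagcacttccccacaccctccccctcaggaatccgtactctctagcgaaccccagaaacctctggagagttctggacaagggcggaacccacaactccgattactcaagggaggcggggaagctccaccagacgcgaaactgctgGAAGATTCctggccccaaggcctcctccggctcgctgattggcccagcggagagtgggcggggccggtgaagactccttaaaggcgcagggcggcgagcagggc
Hspb1: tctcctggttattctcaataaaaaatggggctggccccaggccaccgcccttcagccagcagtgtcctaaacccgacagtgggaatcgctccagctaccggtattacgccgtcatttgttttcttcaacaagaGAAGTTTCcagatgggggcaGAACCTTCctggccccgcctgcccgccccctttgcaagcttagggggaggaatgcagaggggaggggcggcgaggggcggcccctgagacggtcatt
Hsph1: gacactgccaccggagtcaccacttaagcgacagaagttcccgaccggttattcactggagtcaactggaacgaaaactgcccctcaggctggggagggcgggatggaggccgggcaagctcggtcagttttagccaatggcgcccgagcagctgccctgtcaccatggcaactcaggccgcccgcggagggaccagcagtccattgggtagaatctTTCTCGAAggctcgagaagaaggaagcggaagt
Dnajb1: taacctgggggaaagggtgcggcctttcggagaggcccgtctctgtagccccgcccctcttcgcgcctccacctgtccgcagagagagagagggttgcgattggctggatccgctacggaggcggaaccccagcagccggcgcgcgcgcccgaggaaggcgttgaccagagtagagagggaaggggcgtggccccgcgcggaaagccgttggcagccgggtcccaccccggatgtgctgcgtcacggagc
Hspa5: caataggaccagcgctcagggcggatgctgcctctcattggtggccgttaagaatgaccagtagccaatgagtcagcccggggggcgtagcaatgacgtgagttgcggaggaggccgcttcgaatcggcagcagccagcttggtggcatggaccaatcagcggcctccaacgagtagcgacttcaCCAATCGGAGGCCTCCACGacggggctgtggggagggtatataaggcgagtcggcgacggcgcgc

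Near-silent and expressed genes both carried these letters. A GAANNTTC pair began 104 bases before the start of Hspa1b and of Hspa1a, and 2 such pairs began 117 and 97 bases before the start of Hspb1. Hsph1, which was expressed in every library, had a TTCNNGAA pair 33 bases before its start. Dnajb1 had neither pair in the window shown. Of all 32851 promoter windows of this length, 6.69% held GAANNTTC and 7.17% held TTCNNGAA. The stress element of Hspa5 began 65 bases before the start, and 0.113% of windows held that motif. Neither AGATAA nor TGATAA, forms of the letters that GATA factors bind, was found in any of the member windows, against 9.99% and 7.94% of all windows. A match or its absence describes these letters in this window alone.

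The 7 expressed members differed widely in level. Per kilobase of annotated exon, with the empty vector, Hsp90ab1 (HSP90 beta) stood highest at 1829 ± 83.1 CPM per kb, followed by Hspa8 (the constitutive HSC70) at 413.5 ± 25.6 and Hsp90aa1 (HSP90 alpha) at 349 ± 10.7 (SD, n = 3). Hspa9 (mortalin, the mitochondrial HSP70) had 271 ± 8.12, Hspa5 (BiP, the HSP70 of the endoplasmic reticulum) 180.5 ± 7.42, Hsph1 (HSP105) 47.3 ± 3.78 and Dnajb1 (HSP40) 36.1 ± 1.48 CPM per kb. The order was the same in the other groups. With the empty vector and with the mutant no neighbours in this order overlapped in their libraries, while with the wildtype Hspa9 overlapped with Hspa5 and Hsph1 with Dnajb1. These levels and overlaps depend on the length used. Merged exons span 7266 bases for Hsph1 and 3204 for Dnajb1, against 3802 and 2996 in the longest coding transcript. Together the 7 genes took 1.12 ± 0.0517% of all counts with the empty vector, 1.16 ± 0.0193% with the mutant and 0.939 ± 0.0162% with the wildtype (SD, n = 3). The wildtype libraries, at 0.921% to 0.953%, all lay below the other 6, at 1.07% to 1.18%, in a share of counts that includes the globin reads. Hsp90ab1 alone gave 57115, 51291 and 46103 of the 123467, 109000 and 104669 member counts in wildtype replicates 1, 2 and 3.

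**Figure D1:**
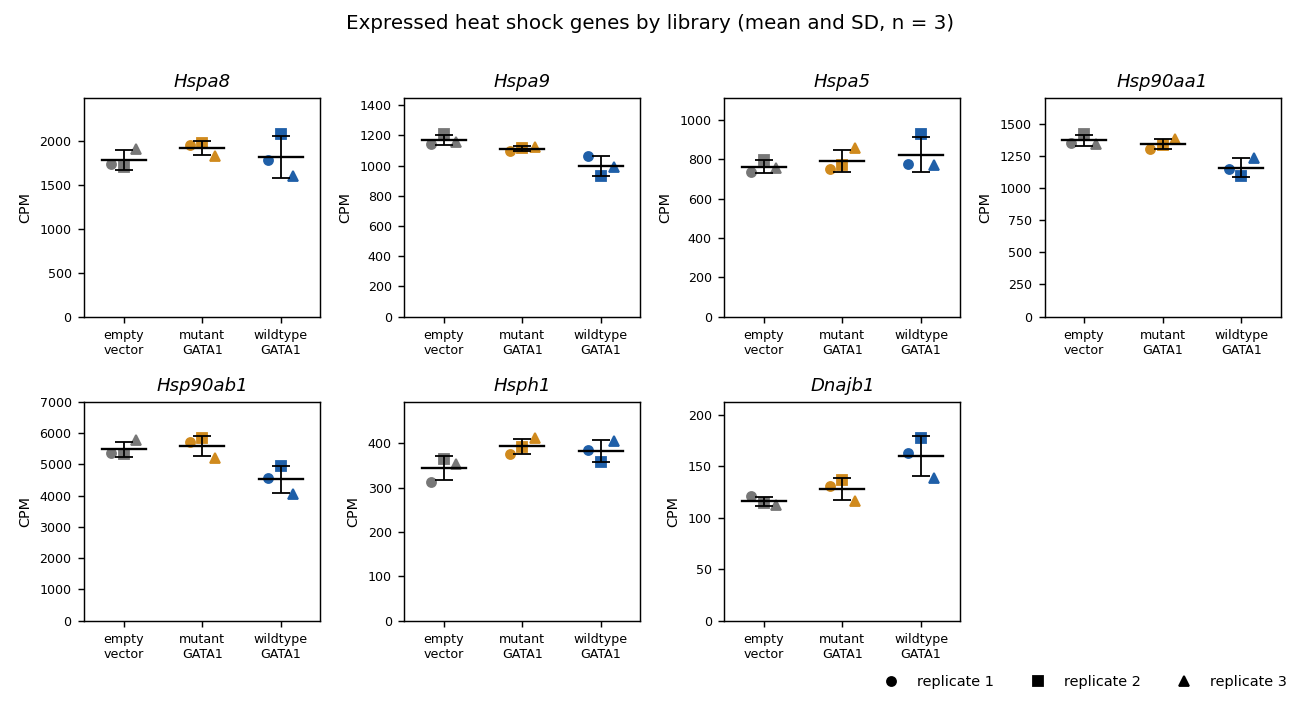
CPM of the 7 expressed heat shock genes in each library (y axis, linear from 0) by group (x axis), where symbols are replicates 1, 2 and 3 and black lines are the group mean and SD (n = 3). Dnajb1 lies between 139 and 177 CPM in the wildtype libraries, above all others, and both HSP90 genes lie lowest there.

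Dnajb1, the J-domain partner that hands clients to cytosolic HSP70 (chromosome 8, 83608193 to 83612653, plus strand), was the member that passed the test. Its level was 121, 114 and 112 CPM in empty vector replicates 1, 2 and 3, 131, 136 and 116 CPM in the mutant replicates, and 163, 177 and 139 CPM in the wildtype replicates. The 3 wildtype libraries lay above the other 6, with replicate 3 nearest to them, and the mutant libraries overlapped with the empty vector. Dnajb1 rose 1.38-fold with wildtype GATA1 (95% interval 1.15 to 1.65; log2 fold change 0.46 ± 0.12, SE; adjusted p 0.0131 in edgeR's quasi-likelihood test). The call was lost without wildtype replicate 2 (adjusted p 0.0594) and without empty vector replicate 2 (0.0619), and adjusted p-values ran from 0.00188 to 0.0619 over 17 alternatives. With the mutant the log2 difference from the empty vector was 0.14 ± 0.12 (adjusted p 0.587). The summed markers of maturing red cells given above also separated the wildtype libraries from the rest, and their part in this result was not tested. In RNA from whole cultures, a change in the number of cells of a stage and a change in RNA per cell cannot be told apart.

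Against wildtype, the mutant had less Dnajb1 by a margin that was a call under 3 of 18 alternatives. The log2 difference of mutant minus wildtype was −0.32 ± 0.12 (adjusted p 0.0642 in edgeR), which is not a call. Deviations of same-numbered libraries from their group means correlated at 0.171, 0.286 and 0.533 between these 2 groups. The pairing of numbers is uncertain, and a fit of these 6 libraries blocked by replicate number was added after seeing the data. It gave an adjusted p of 0.00319 in edgeR and called 4740 of 9846 genes. DESeq2 gave 0.0461, and 0.0178 was reached without wildtype replicate 3. The other alternatives did not call it, with adjusted p-values up to 0.213.

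A ratio within each library, which needs no scaling between libraries, put the groups in the same order. Per 1000 counts of Hspa8 in the same library, Dnajb1 had 69.8, 67.1 and 58.9 counts with the empty vector, 67.4, 68.9 and 63.6 with the mutant, and 91.7, 85.4 and 86.8 with the wildtype. The wildtype ratios lay above all others, and the exact permutation test gave a two-sided p of 0.1 against either group (0.45 adjusted over the 9 ratio tests), the smallest that 3 against 3 libraries allow. Mutant and empty vector ratios overlapped (66.6 ± 2.73 and 65.2 ± 5.7, SD, n = 3; exact p 0.8). This ratio, like the 2 below, was chosen after the values were seen.

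HSP90 RNA lay lower with wildtype GATA1 without passing the adjusted threshold. Hsp90ab1 (chromosome 17, 45567775 to 45573271, minus strand) had 5357, 5326 and 5773 CPM with the empty vector, 5723, 5836 and 5223 with the mutant, and 4570, 4939 and 4049 with the wildtype. Hsp90aa1 (chromosome 12, 110690605 to 110702728, minus strand) had 1352, 1421 and 1345 CPM with the empty vector, 1307, 1334 and 1385 with the mutant, and 1146, 1091 and 1236 with the wildtype. For both genes all wildtype libraries lay below all others. Wildtype minus empty vector was −0.28 ± 0.12 for Hsp90ab1 (adjusted p 0.0983) and −0.25 ± 0.10 for Hsp90aa1 (0.105), with 95% intervals of −0.53 to −0.03 and −0.47 to −0.02 on the log2 scale. Without wildtype replicate 3, Hsp90aa1 passed at 0.041. No other of the 17 alternatives called either gene.

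In the mutant libraries both HSP90 genes overlapped with the empty vector. Mutant minus empty vector was 0.03 ± 0.12 for Hsp90ab1 and −0.03 ± 0.10 for Hsp90aa1, with 95% intervals of −0.22 to 0.28 and −0.26 to 0.19. Mutant minus wildtype was 0.31 ± 0.12 (adjusted p 0.0661) and 0.21 ± 0.10 (0.146). With the replicate block in the 6 mutant and wildtype libraries both were called higher with the mutant, at adjusted p-values of 0.0135 and 0.0492. That fit called 4740 of 9846 genes, and its pairing was taken from the same libraries and is uncertain. The block in all 9 libraries called neither gene. Without wildtype replicate 2, Hsp90ab1 passed at 0.0492 without a block. No other of the 18 alternatives called either gene. The ratio of the isoforms did not separate the groups. Per 1000 counts of Hsp90aa1 there were 4002 ± 274 counts of Hsp90ab1 with the empty vector, 4175 ± 350 with the mutant and 3929 ± 626 with the wildtype (SD, n = 3), and the groups overlapped (exact permutation p 1 for wildtype and 0.5 for mutant against the empty vector, 0.7 between them). Of the 50-base stretches of Hsp90aa1, 58.5% also occur in other annotated genes, mainly Gm12346, so its row is less certain than that of Hsp90ab1 (4.49%).

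No tested HSP70 member was called in any comparison, and only for the mitochondrial one did all wildtype libraries lie below the others. Hspa9 (chromosome 18, 34937414 to 34954357, minus strand), which also takes part in making iron-sulphur clusters, had 1142, 1209 and 1159 CPM with the empty vector, 1098, 1117 and 1125 with the mutant, and 1063, 929 and 994 with the wildtype. The 3 groups did not overlap, and wildtype minus empty vector was −0.23 ± 0.10 (adjusted p 0.121). The mutant differed by −0.07 ± 0.10 from the empty vector (0.774) and by 0.16 ± 0.10 from the wildtype (0.267).

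Hspa8 (chromosome 9, 40800984 to 40810087, plus strand) had 1734, 1698 and 1904 CPM with the empty vector, 1947, 1977 and 1825 with the mutant, and 1777, 2073 and 1600 with the wildtype. Its wildtype libraries spanned the whole range of the others, and wildtype minus empty vector was 0.03 ± 0.12, with a 95% interval of −0.23 to 0.29. Copies elsewhere share 74.8% of its 50-base stretches, mainly Gm15459, and small nucleolar RNA genes lie within its span. Hspa5 (chromosome 2, 34771970 to 34777547, plus strand) had 737, 798 and 755 CPM with the empty vector, 749, 770 and 856 with the mutant, and 775, 929 and 770 with the wildtype, which overlap. Wildtype minus empty vector was 0.11 ± 0.11 (adjusted p 0.513), with a 95% interval that excludes a rise above 1.28-fold. None of the 50-base stretches of Hspa5 occurs in another annotated transcript.

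Hsph1, the large HSP70 relative that acts as an exchange factor (chromosome 5, 149614287 to 149636376, minus strand), did not pass the test in any comparison. It had 313, 365 and 354 CPM with the empty vector, 377, 391 and 411 with the mutant, and 384, 358 and 405 with the wildtype. All mutant libraries lay above the empty vector, while 1 wildtype library fell within it. The log2 differences from the empty vector, which share those control libraries, were 0.19 ± 0.11 with the mutant (adjusted p 0.454) and 0.15 ± 0.11 with the wildtype (0.325), and neither is a call. Per 1000 counts of Hspa8 its groups overlapped, at 194 ± 18.6, 205.5 ± 17.2 and 214 ± 40.4 counts with the empty vector, mutant and wildtype (SD, n = 3).

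**Figure D2:**
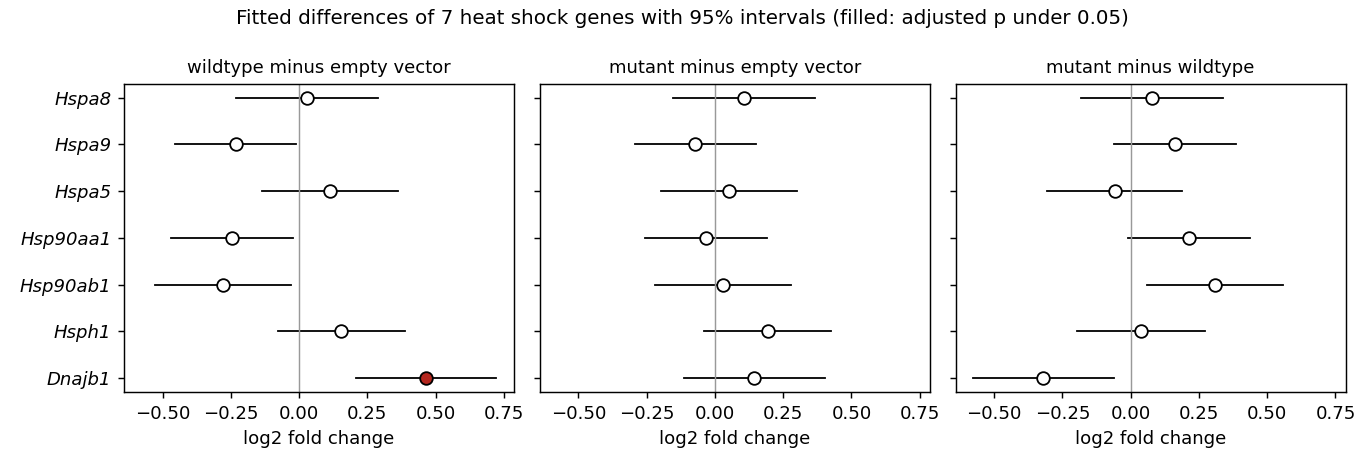
Fitted log2 fold change (x axis) of the 7 expressed members (y axis) in the 3 comparisons, with 95% intervals from edgeR as bars and filled points for an adjusted p under 0.05. Dnajb1 in wildtype minus empty vector is the single filled point, at 0.46, and all intervals of mutant minus empty vector include 0.

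In counts, 1 of the 7 tested members rose and 0 fell with wildtype GATA1 in edgeR, where 23.3% of all tested genes were called (11.4% higher, 11.9% lower). At an unadjusted p under 0.05 there were 1 higher and 3 lower, beside 36.5% of all genes, and DESeq2 also called 1 higher and 0 lower. Leaving out wildtype replicate 2 or empty vector replicate 2 gave 0, and without wildtype replicate 3 there were 1 higher and 1 lower. The groups did not overlap for 4 members, beside 32.6% of all tested genes. A log2 fold change above 0 was found for 4 of 7, beside 45.8% of all genes. The median log2 fold change was 0.03 over the members and −0.04 over all tested genes.

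With the mutant against the empty vector 0 of 7 members were called in edgeR, 0 in DESeq2 and 0 at an unadjusted p under 0.05, where 0.271% of all tested genes were called and 12.9% passed unadjusted. Of the 7 differences 5 were above 0, beside 49.8% of all genes. The groups did not overlap for 2 members, Hsph1 and Hspa9, beside 15% of all genes. Between mutant and wildtype 0 of 7 were called in edgeR, where 25.9% of all genes were, with 2 at an unadjusted p under 0.05 (39.1% of all genes). DESeq2 called 1 member, where it called 2825 of 15023 genes. The replicate block in the 6 libraries called 3 members, where it called 4740 of 9846 genes. Of the 7 differences 5 were above 0, beside 49.6% of all genes. Here 4 members did not overlap, beside 44.2% of genes.

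Across the 9 libraries Dnajb1 ran opposite to Hsp90aa1 and Hspa9, and less so to Hsp90ab1. Pearson's r of log2 CPM with Dnajb1 was −0.955 for Hsp90aa1, −0.855 for Hspa9 and −0.487 for Hsp90ab1, and 0.889 between Hsp90aa1 and Hspa9, over libraries that share groups, depth and scaling. The genes outside the family whose pattern was most like that of Dnajb1 were Anapc16 (r 0.99), a subunit of the anaphase-promoting complex, Smim1 (0.988), which carries the Vel blood group, and Ccdc28a (0.983). Smim1 had 155 to 185 CPM with the empty vector, 177 to 227 with the mutant and 278 to 471 with the wildtype, and like Dnajb1 it was lowest in replicate 3 of the mutant and of the wildtype.

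Around the members, 139 further genes of the chaperone network had a row, in 9 lists of factors, relatives and partners, and 124 were tested. With wildtype GATA1, 6 rose and 13 fell in edgeR, or 15.3% of them, beside 23.3% of all tested genes, and their median log2 fold change was −0.04, as over all genes. With RLE scaling the split was 10 higher and 12 lower, beside 1241 higher and 1074 lower of all 9978 tested genes. Leaving out wildtype replicates 1, 2 or 3 gave 10, 12 or 33 calls, and leaving out empty vector replicate 2 gave 11. In that order, these fits called 1511 of 10125, 1703 of 10114, 3255 of 10091 and 1438 of 10110 genes over the whole table. Where no lost call is given below, a call held under all alternatives tried.

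Among the 124 tested network genes the largest change was in a J-domain protein. Dnajb2, which delivers ubiquitinated clients to HSP70, had 16.7, 19.2 and 18.7 CPM with the empty vector, 19.4, 22.1 and 17.2 with the mutant, and 116, 108 and 87.9 with the wildtype. It rose 5.71-fold (log2 fold change 2.51 ± 0.15, adjusted p 1.1e-07 in edgeR), and mutant libraries overlapped with the empty vector. Of 35 tested J-domain genes 3 rose and 1 fell, beside 11.4% and 11.9% of all tested genes. Dnajb12 rose by 0.65 ± 0.15 on the log2 scale, Dnajc10, a reductase of the endoplasmic reticulum, fell by 0.84 ± 0.15, and the rise of Dnajc28, named to complete the count, had an adjusted p of 0.0448. That of Dnajc28 missed the threshold in DESeq2 (0.0511), in the 6 compared libraries alone (0.0594), and on leaving out mutant replicate 2 (0.0601), wildtype replicate 1 (0.124) or 2 (0.116), or empty vector replicate 1 (0.0876) or 3 (0.124).

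Of 14 exchange factors and other HSP70 partners, 1 rose and 2 fell, beside 11.4% and 11.9% of all tested genes. Bag1 had 17.6, 17.3 and 17.6 CPM with the empty vector, 17.8, 16.9 and 18.1 with the mutant and 31.7, 32.8 and 27.8 with the wildtype, and rose 1.76-fold (adjusted p 0.000609 in edgeR). Bag3, a target of HSF1 that directs clients to autophagy, had 45.5, 58.2 and 58.4 CPM with the empty vector and 37.8, 33.2 and 42.2 with the wildtype, with a log2 fold change of −0.52 ± 0.14 in edgeR (adjusted p 0.0159). That call ended without wildtype replicates 1 or 2 (0.0763 and 0.064) or empty vector replicate 2 (0.0804). St13, which steadies HSP70 with its client, was the third of 14 to be called (−0.65 ± 0.18), although its groups overlapped, and was lost without wildtype replicates 1 or 2 (0.0772 and 0.0672) or empty vector replicates 1 or 2 (0.0622 and 0.0735). Xpo1 (−0.21 ± 0.27, adjusted p 0.598) was not called.

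The other called HSP70 and HSP90 relatives fell. Hspa2, an HSP70 best known from testis, had 25.4, 29.5 and 28 CPM with the empty vector and 14.4, 14.6 and 18.8 with the wildtype (−0.79 ± 0.15). It was 1 of 3 falls among 7 genes, beside 11.9% of all tested genes. Hspa4l (−0.70 ± 0.20) and Hspa12b (−0.94 ± 0.29) were the others; the first failed on leaving out wildtype replicate 1 (0.118) or 2 (0.0833) or empty vector replicate 1 (0.0576) or 2 (0.0882), and Hspa12b in the 6 compared libraries alone (0.0663), with the replicate block in all 9 libraries (0.0551) and on leaving out mutant replicate 1 (0.0572), wildtype replicate 2 (0.058) or 3 (0.0637), or empty vector replicate 2 (0.12) or 3 (0.0642). Tomm34 (−0.57 ± 0.11), a cochaperone of mitochondrial import, and Fkbp5 (−0.89 ± 0.19), an immunophilin of steroid receptor complexes, also fell. They were the 2 of 20 HSP90 partners that did so, beside the same 11.9% of all tested genes. Hsp90b1, the HSP90 of the endoplasmic reticulum, had −0.35 ± 0.12 (adjusted p 0.0596). It passed under 4 of 17 alternatives. These were DESeq2 (0.0495), no low-count filter (0.0465), and leaving out wildtype replicate 3 (0.012) or empty vector replicate 3 (0.0376). Hspa4 had −0.21 ± 0.11 (0.202). Of 3 tested heat shock factors and regulators, Hsf2 fell (−0.99 ± 0.25, adjusted p 0.0117), a call lost without wildtype replicate 1 (0.0679), and Hsf1 was not called (−0.16 ± 0.13, 0.398).

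**Figure D3:**
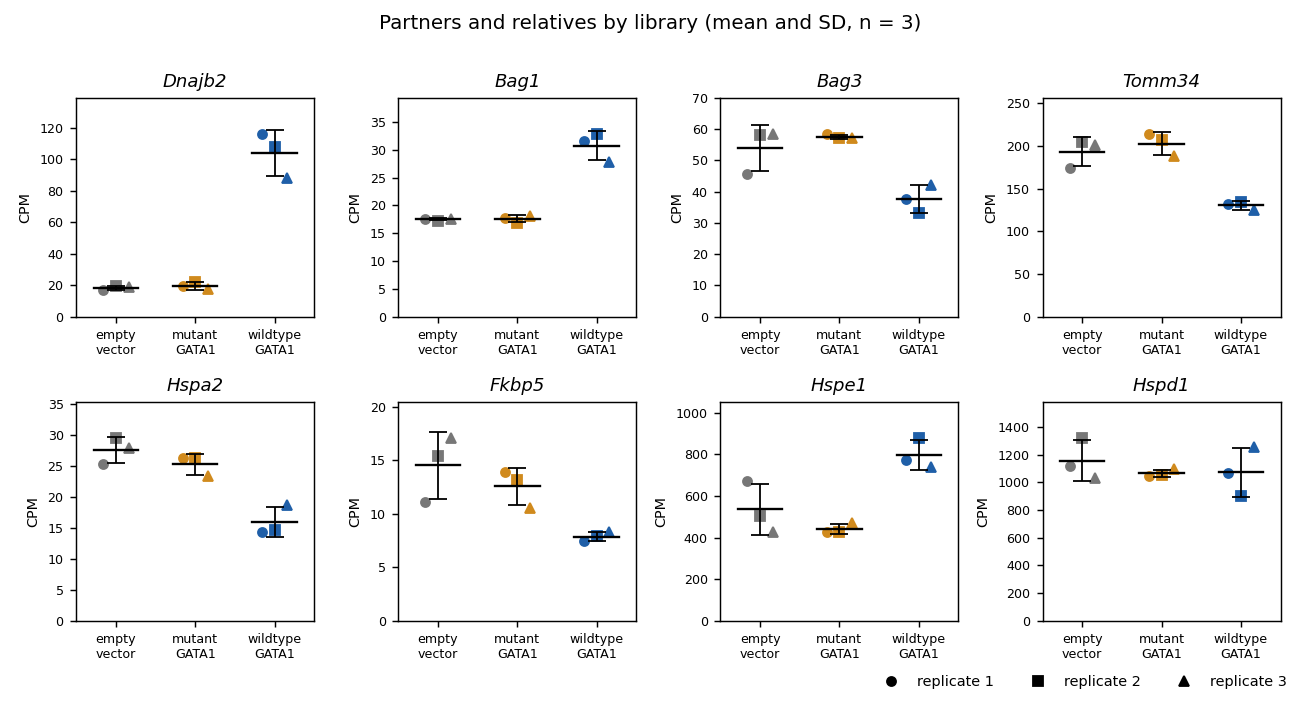
CPM of 8 partners and relatives in each library (y axis, linear from 0) by group (x axis), with symbols for replicates 1, 2 and 3 and black lines for the group mean and SD (n = 3). Dnajb2 stands at 87.9 to 116 CPM in the wildtype libraries and at 16.7 to 22.1 CPM in all others.

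In mitochondria the co-chaperonin Hspe1 had 672, 505 and 428 CPM with the empty vector, 427, 427 and 471 with the mutant and 773, 878 and 740 with the wildtype. Hspe1 rose 1.49-fold with the wildtype in edgeR (adjusted p 0.016). Leaving out wildtype replicate 2 (0.0599) or empty vector replicate 2 (0.0757) ended that call. Its partner Hspd1 did not pass (−0.11 ± 0.14, 0.601), and the 2 genes overlap head to head on chromosome 1 (Hspe1 from 55088132, Hspd1 to 55088243), so reads there cannot be told apart. The protease gene Htra2 rose by 0.71 ± 0.15, which made 2 of 10. Of all tested genes 11.4% rose and 11.9% fell in edgeR, and 36.5% had an unadjusted p under 0.05. In the endoplasmic reticulum 4 of 20 fell and 0 rose in edgeR and in DESeq2, with 8 at an unadjusted p under 0.05 in either direction. Xbp1 (−0.48 ± 0.11; lost without wildtype replicate 1, 0.0803), Pdia4 (−0.39 ± 0.10; lost in the 6 compared libraries alone, 0.0662, without mutant replicate 1, 0.0518, wildtype replicate 1, 0.108, or empty vector replicate 2, 0.0628), Ern1 (−0.48 ± 0.14) and Sel1l (−0.40 ± 0.13, named to complete the count) were these. Ern1 failed with no low-count filter (0.0539), in the 6 compared libraries alone (0.0843), with the replicate block in all 9 libraries (0.0646) and on leaving out mutant replicate 1, wildtype replicate 1 or 2, or empty vector replicate 2 or 3 (0.0534 to 0.117), while Sel1l failed under 11 of 17 alternatives (0.056 to 0.195), among them RLE scaling (0.0596), the 6 compared libraries alone (0.102), that block (0.0705), mutant replicates 1 and 2 summed (0.0722), each mutant library left out and the same 4 others left out. None of 13 chaperonin and prefoldin genes and none of 2 small heat shock genes was called in edgeR, against 2 and 0 in DESeq2 and 2 and 1 at an unadjusted p under 0.05.

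With the mutant against the empty vector, 0 of the 124 network genes were called in edgeR, 1 in DESeq2 (Ern1) and 16 at an unadjusted p under 0.05, where 0.271% of all tested genes were called in edgeR and 12.9% passed unadjusted. Without empty vector replicate 3 there were 2 higher and 10 lower, in a fit that called 837 of 10089 genes (227 higher, 610 lower). Ern1, the IRE1 stress sensor of the endoplasmic reticulum, had 15, 15.6 and 16.4 CPM with the empty vector, 24, 22.4 and 21.4 with the mutant and 11, 10.8 and 11.9 with the wildtype, so the 3 groups did not overlap. Its mutant minus empty vector difference was 0.53 ± 0.13 on the log2 scale (adjusted p 0.173).

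Between mutant and wildtype, the mutant had 13 network genes higher and 12 lower in edgeR, 20.2% of the 124 beside 25.9% of all tested genes. Called under every alternative were Ern1 (1.01 ± 0.14), Hspa12b (1.27 ± 0.28), Hspa2 (0.67 ± 0.15), Tomm34 (0.64 ± 0.11), Bag3 (0.61 ± 0.14), Xbp1 (0.51 ± 0.11) and Pdia4 (0.44 ± 0.10), which were higher with the mutant, and Dnajb2 (−2.41 ± 0.15), Hspe1 (−0.85 ± 0.15), Bag1 (−0.81 ± 0.13) and Htra2 (−0.62 ± 0.15), which were lower. The other 14 calls were each lost under at least 1 alternative. With the replicate block in the 6 libraries 24 network genes were higher and 29 lower, in a fit that called 4740 of 9846 genes. Network calls numbered 13 without mutant replicate 1, 11 without mutant replicate 2, 14 without wildtype replicate 1 or 2, and 11 with mutant replicates 1 and 2 summed. In that order, these fits called 1471 of 10095, 1570 of 10100, 1643 of 10125, 1780 of 10114 and 1551 of 10092 genes over the whole table.

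**Figure D4:**
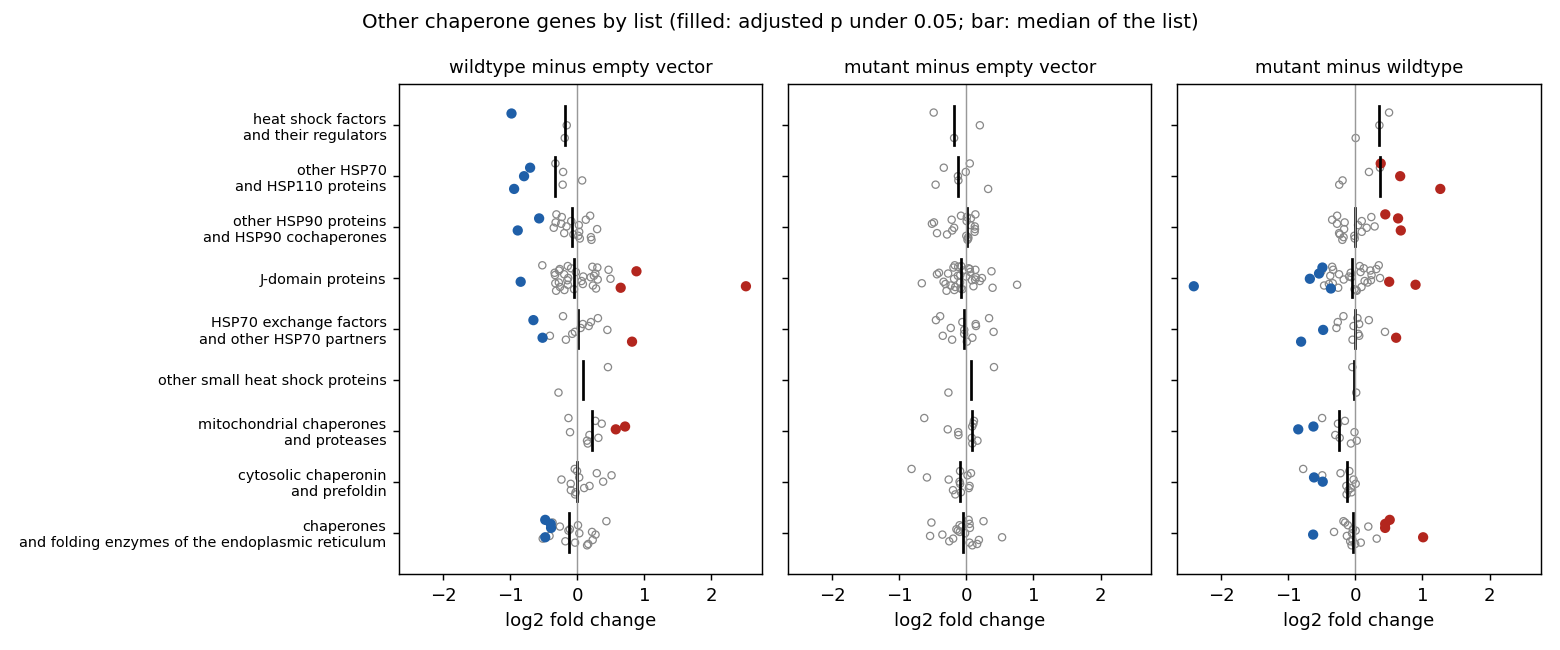
Log2 fold change (x axis) of the 124 tested network genes by list (y axis) in the 3 comparisons, 1 point a gene, filled red (higher) or blue (lower) at an adjusted p under 0.05 in edgeR and open otherwise, with a black bar at each list's median. The J-domain gene Dnajb2 stands apart at 2.51 in wildtype minus empty vector, and no point is filled in mutant minus empty vector.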

How the data were processed

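The authors deposited a single table of raw read counts, with genes in rows and libraries in columns. Alignment used STAR, with genome builds GRCm38.p4 and hg19, per the submitters' processing notes. The tool and annotation used for counting, and how multiply matching reads were treated, are not stated in the sources at hand. Groups and replicate numbers came from the sample titles.

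Counts were analysed with edgeR 4.0.16 in R 4.3.3: TMM factors, filterByExpr with the groups, and a quasi-likelihood fit of 1 mean per group to all 9 libraries. The human GATA1 row was kept out of the fit. Benjamini-Hochberg adjustment ran over 9978 genes in each comparison, and a call is an adjusted p under 0.05. The SE of a log2 fold change is its size over the square root of the F-statistic, and is approximate, as are the 95% intervals made from it. CPM uses TMM-scaled library sizes (library totals for human GATA1), and log2 CPM a prior count of 2. Positions and exon lengths (all exons merged) are from GENCODE M21 on GRCm38. The fit was tested on simulated data with 200 changed genes.

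The members and lists were chosen with earlier results of these data known. Named genes were all 10 members, up to 3 called genes of each list and comparison with the smallest p, 6 preset genes (Hsf1, Hspa4, Hsp90b1, Hspd1, Hspe1, Xpo1), the 2 most abundant of a list with no call, and the 3 genes most correlated with each member called in wildtype minus empty vector. A further list, the globin chaperone, was not analysed here.

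Alternatives were RLE factors, DESeq2 1.42.0, no low-count filter, 5 CPM in 3 libraries, only the 6 libraries compared, a replicate block, each library left out, mutant replicates 1 and 2 summed, and Hspa1a and Hspa1b summed. The pairing of numbers was checked by correlating the libraries' deviations from their group means: same-numbered mutant and wildtype libraries had 0.171, 0.286 and 0.533, so their numbers were taken as paired from the data, and a block in those 6 libraries was added after seeing the data. Pairs with the empty vector had −0.202 to −0.435. Of the 9 libraries, 4 correlated best with a library of their own number among the other groups, so the pairing is uncertain.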

Additional observations from a re-analysis of the deposited data

How the results depend on the processing

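Precision is limited by 3 libraries a group. For Hspa1a, Hspa1b and Hspb1 no difference was detectable at this depth, and the treatment of shared reads is unknown. Members called with the wildtype against the empty vector numbered 1 and ran from 0 to 2 when 1 library was left out; against the mutant they ran from 0 to 1 around 0, with 1 in DESeq2 and 3 with the replicate block in the 6 mutant and wildtype libraries. Mutant minus empty vector gave 0 members throughout.

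Genes called over the whole table numbered 2323 for wildtype minus empty vector (1438 to 3255 with 1 library left out). For mutant minus empty vector they numbered 27 (7 to 837), with 96 in DESeq2, 415 with no low-count filter, 14 with the replicate block in all 9 libraries and 11 with mutant replicates 1 and 2 summed. For mutant minus wildtype they numbered 2580 (1471 to 3158), with 1551 for the summed replicates and 4740 with the replicate block in the 6 libraries. Network genes called numbered 19 (10 to 33), 0 (0 to 12) and 25 (11 to 33) in the same order; mutant minus empty vector had 1 in DESeq2 and 7 with no filter, and mutant minus wildtype 11 for the summed replicates and 53 with the 6-library block. The block in all 9 libraries changed no call of a member.

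Signs turned with 1 library left out for values near 0 that were not calls. In wildtype minus empty vector Hspa8 ran from −0.076 (without wildtype replicate 2) to 0.11 and was −0.0037 when empty vector replicate 2 was dropped, and Hspd1 ran from −0.23 to 0.0014 (wildtype replicate 2). In mutant minus empty vector Hspa5 ran from −0.0069 (mutant replicate 3) to 0.12, Hsp90aa1 from −0.055 to 0.011 (mutant replicate 1) and Hsp90ab1 from −0.0035 (mutant replicate 2) to 0.075. In mutant minus wildtype Hspa5 ran from −0.12 to 0.034 (wildtype replicate 2), Hsph1 from −0.0080 (wildtype replicate 2) to 0.083 and Hspa8 from −0.0057 (wildtype replicate 3) to 0.18. The cause was not tested. Of the other values of single genes under an alternative, 1055 kept direction and call, 144 lost a call and 11 gained one. RLE scaling shifted the median of all genes by at most 0.03 on the log2 scale.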
